A study of Mus musculus with 16 samples.

Results

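Total lung RNA of mice was examined for 6 genes of phagocyte effector enzymes: Acod1, Nos2, Cybb, Cyba, Ncf1 and Ncf4. The genes were chosen by function, with earlier results of these data known, and found by symbol in the platform annotation. Each had 1 probe set among the 19938 genes measured, so that all 6 of 6 were read. C57BL/6 mice of 10 to 12 weeks of age had received either crystalline silica (CS) or only saline (PBS) through the trachea. At day 2 the mice were BLT1+/+ or BLT1-/- and carried no tumor allele. At day 60 they were BLT1+/+KRasLA1 or BLT1-/-KRasLA1. BLT1 is the high-affinity receptor for leukotriene B4, a lipid that attracts neutrophils, and the BLT1-/- mice lacked it in all cells. KRasLA1 is a latent oncogenic allele that becomes active by spontaneous recombination in scattered cells, so that tumors arise in the lung. The 4 CS groups held 3 lungs each, and each of the 4 PBS groups was 1 array of RNA pooled from 3 mice, 16 arrays in all. Day and KRasLA1 go together in this design and cannot be told apart.

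Phagocytes carry several enzymes that act on engulfed material. Acod1 (also called Irg1) encodes the mitochondrial enzyme that makes itaconate from cis-aconitate, and itaconate inhibits succinate dehydrogenase and bacterial isocitrate lyase and engages the NRF2 and ATF3 stress programs. Nos2 encodes the inducible nitric oxide synthase, which makes nitric oxide from arginine. The phagocyte NADPH oxidase makes superoxide: Cybb (gp91phox) and Cyba (p22phox) form its membrane core, and the cytosolic subunits Ncf1 (p47phox) and Ncf4 (p40phox) join it on activation. Acod1 and Nos2 are switched on in macrophages and, for Acod1, in neutrophils by microbial and cytokine signals, while the oxidase genes are expressed at rest in myeloid cells and, for several subunits, in B cells. In the lung, silica particles are taken up by alveolar macrophages.

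All levels are log2 values after RMA normalization, and differences are log2 differences, so that 1 unit is a factor of 2. The median of an array lay between 8.25 and 8.34. Errors are standard errors from limma unless called SD, and a gene was called where its limma p, adjusted by Benjamini-Hochberg over all 19938 genes, was under 0.05. The lung markers Sftpc, Scgb1a1 and Sftpa1, which belong to alveolar and airway epithelium, were at 14.09 or more on every array. Ltb4r1, the gene of BLT1, was between 7.22 and 7.63 on all arrays of both genotypes. Where its probe set lies relative to the deletion is not given in the labels, so this level does not check them. The Y-linked gene Eif2s3y was between 9.04 and 10.09 on 3 arrays (BLT1+/+KRasLA1 CS replicate 2 and both day 60 PBS pools) and between 4.27 and 4.74 on the other 13. RNA of male mice was thus unevenly spread between CS lungs and pools at day 60, and between the days. Its bearing on the day 60 responses and on the differences between days was not tested. RNA of whole lungs does not tell fewer cells of a type from less RNA per cell. The labels call the CS lungs of a group biological replicates.

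Acod1 rose after silica at both days and in every genotype, and it was the only one of the 6 genes that was called at day 2. In BLT1+/+ lungs at day 2 the Acod1 level was 11.14, 11.86 and 12.91 in the 3 CS lungs and 8.25 in the PBS pool. In BLT1-/- lungs it was 10.77, 10.54 and 10.39 against 8.49. At day 60 the BLT1+/+KRasLA1 CS lungs had 10.70, 10.69 and 10.28 and their pool 7.03. The BLT1-/-KRasLA1 CS lungs had 9.55, 11.18 and 10.92 and their pool 7.64. All 12 CS lungs lay above all 4 pools, with BLT1+/+ replicate 3 at day 2 the highest and BLT1-/-KRasLA1 replicate 1 the lowest of them.

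Averaged over both BLT1 genotypes, Acod1 rose 7.47-fold at day 2 (2.90 ± 0.41, adjusted p = 0.000813, 6 of 6 lungs) and 9.29-fold at day 60 (3.22 ± 0.41, adjusted p = 0.000688, 6 of 6 lungs). By genotype, it rose by 3.73 ± 0.58 in BLT1+/+ lungs (adjusted p = 0.00915) and by 2.08 ± 0.58 in BLT1-/- lungs (adjusted p = 0.0485) at day 2. It rose by 3.52 ± 0.58 in BLT1+/+KRasLA1 lungs (adjusted p = 0.0154) and by 2.91 ± 0.58 in BLT1-/-KRasLA1 lungs (adjusted p = 0.0309) at day 60. The response at day 60 differed from that at day 2 by 0.31 ± 0.58 (95% interval from -0.93 to 1.56, adjusted p = 0.921). The call in BLT1-/- lungs at day 2 held in 4 of 12 fits that left out 1 CS lung of the study (adjusted p from 0.0195 to 0.0836) and ended without any lung of that group, BLT1+/+ replicate 2, BLT1-/-KRasLA1 replicate 3 or any BLT1+/+KRasLA1 lung. On the arrays of day 2 alone the same response had an adjusted p of 0.06.

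**Figure D1:**
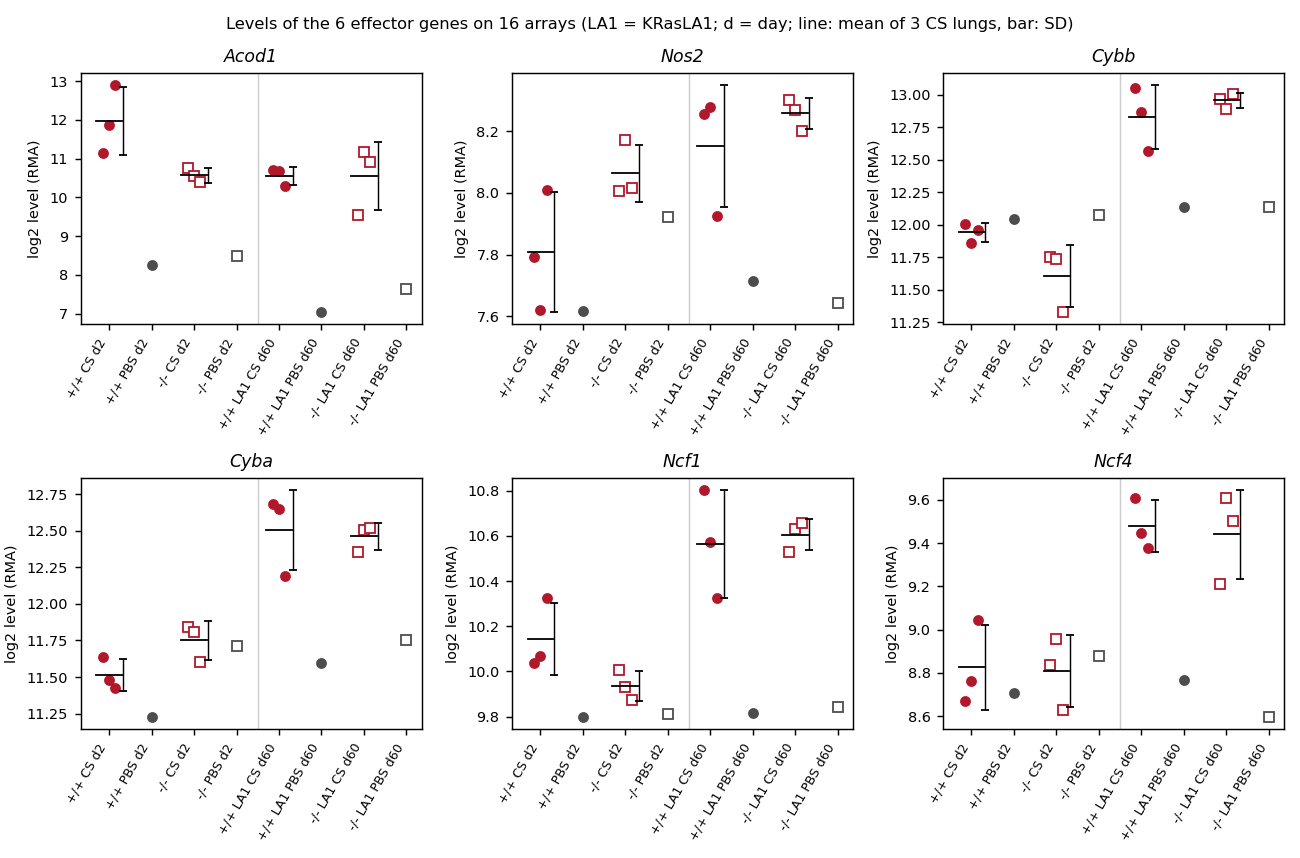
Log2 level of each of the 6 genes (vertical axis, RMA scale, a separate range in each panel) on the 16 arrays by group (horizontal axis). Red points are CS lungs, grey points PBS pools, open squares BLT1-/- mice; the line is the mean and the bar the SD of 3 CS lungs. Acod1 was higher in all 12 CS lungs than in any pool, whereas Cybb, Cyba, Ncf1 and Ncf4 were highest in the day 60 CS lungs.

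Nos2 differed little between any of the arrays. Its levels spanned 0.68 log2 units over all 16 arrays, from 7.62 to 8.30, and lay under the array's own median on 15 of them, where RMA draws differences towards 0. In BLT1+/+ lungs at day 2 the Nos2 level was 7.79, 7.62 and 8.01 after CS and 7.62 in the pool. In BLT1-/- lungs it was 8.01, 8.17 and 8.02 after CS and 7.92 in the pool. These CS lungs lay at or just above their pools, and the mean response at day 2 was 0.17 ± 0.12 (adjusted p = 0.434, 6 of 6 lungs). At day 60 the BLT1+/+KRasLA1 CS lungs had 8.25, 8.28 and 7.92 and their pool 7.72. The BLT1-/-KRasLA1 CS lungs had 8.30, 8.27 and 8.20 and their pool 7.64. All 6 CS lungs of day 60 were above both of that day's pools. Averaged over the genotypes Nos2 rose 1.44-fold at day 60 (0.53 ± 0.12, adjusted p = 0.0201), with 0.44 ± 0.16 in BLT1+/+KRasLA1 lungs (adjusted p = 0.352) and 0.62 ± 0.16 in BLT1-/-KRasLA1 lungs (adjusted p = 0.111). The difference between the days was 0.36 ± 0.16 (adjusted p = 0.340).

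The 4 oxidase genes were called higher at day 60 and in none of the day 2 comparisons. Cybb, which encodes the catalytic subunit, was at 12.00, 11.86 and 11.96 in BLT1+/+ CS lungs at day 2 and at 12.05 in the pool. In BLT1-/- CS lungs it was at 11.75, 11.74 and 11.33, with 12.07 in the pool. All 6 CS lungs of day 2 were below both pools, and the mean response was -0.29 ± 0.12 (adjusted p = 0.152). At day 60 Cybb was at 13.05, 12.87 and 12.56 in BLT1+/+KRasLA1 CS lungs and at 12.97, 12.89 and 13.0045 in BLT1-/-KRasLA1 CS lungs, against 12.14 in each pool. Every CS lung of day 60 was thus above every other array. Cybb rose 1.69-fold (0.75 ± 0.12, adjusted p = 0.00286, 6 of 6 lungs). The gene lies on the X chromosome. In BLT1+/+KRasLA1 replicate 2, the CS lung with Eif2s3y RNA, Cybb lay between the other 2 lungs of its group. Both day 60 pools held Eif2s3y RNA as well, and the part of sex in the Cybb response was not tested.

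Cyba, the partner that holds Cybb in the membrane, was at 11.64, 11.48 and 11.42 in BLT1+/+ CS lungs at day 2 against 11.23 in the pool, and at 11.84, 11.81 and 11.60 in BLT1-/- CS lungs against 11.71. These values overlapped between CS lungs and pools, and the mean response was 0.16 ± 0.12 (adjusted p = 0.442, 5 of 6 lungs). At day 60 the Cyba level was 12.68, 12.65 and 12.19 in BLT1+/+KRasLA1 CS lungs against 11.60, and 12.36, 12.51 and 12.52 in BLT1-/-KRasLA1 CS lungs against 11.75. The 6 CS lungs of day 60 again lay above all other arrays. Cyba rose 1.75-fold at day 60 (0.81 ± 0.12, adjusted p = 0.00137, 6 of 6 lungs).

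Ncf1, the organizer that carries the cytosolic complex to the membrane, was at 10.04, 10.07 and 10.33 in BLT1+/+ CS lungs at day 2 and at 9.80 in the pool. In BLT1-/- CS lungs it was at 10.01, 9.93 and 9.87, with 9.81 in the pool. Each of these CS lungs was above both pools, and the mean response of 0.24 ± 0.11 was not called (adjusted p = 0.202, 6 of 6 lungs). At day 60 Ncf1 was at 10.80, 10.57 and 10.32 in BLT1+/+KRasLA1 CS lungs against 9.82, and at 10.53, 10.63 and 10.66 in BLT1-/-KRasLA1 CS lungs against 9.84. The lowest of these lungs, BLT1+/+KRasLA1 replicate 3, reached the level of the highest day 2 lung. Ncf1 rose 1.69-fold at day 60 (0.76 ± 0.11, adjusted p = 0.00152, 6 of 6 lungs).

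Ncf4, the subunit that binds a phosphoinositide of the phagosome membrane, was at 8.67, 8.76 and 9.05 in BLT1+/+ CS lungs at day 2 and at 8.71 in the pool. In BLT1-/- CS lungs it was at 8.84, 8.96 and 8.63, with 8.88 in the pool. CS lungs lay on both sides of the pools, and the mean response was 0.026 ± 0.13 (adjusted p = 0.933, 3 of 6 lungs). At day 60 Ncf4 was at 9.61, 9.45 and 9.37 in BLT1+/+KRasLA1 CS lungs against 8.77, and at 9.21, 9.61 and 9.50 in BLT1-/-KRasLA1 CS lungs against 8.59. All 6 were above every other array, and Ncf4 rose 1.71-fold (0.78 ± 0.13, adjusted p = 0.00321, 6 of 6 lungs).

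At day 2, 1 of the 6 genes was called higher in the mean response, beside 8.03% of all genes. Acod1 and Ncf1, 2 of 6, had all 6 CS lungs above both pools at day 2 (12.1% of all genes), and Cybb had all 6 below (10%). At day 60 all 6 genes had every CS lung above both pools (9.66% of all genes). All 6 were then called higher, beside 3.35% of all genes, with a median difference of 0.77 for the 6 genes and -0.029 for all genes. The 6 genes were chosen with earlier results of these data known, so this contrast with all genes is no test of them as a set. The responses of the 4 oxidase genes spanned 0.75 to 0.81 at day 60. Against their own pools, 1 of 6 was called in BLT1+/+ (0.853% of all genes) and 1 of 6 in BLT1-/- lungs (5.19%) at day 2, which was Acod1 in both. At day 60, 3 of 6 were called in BLT1+/+KRasLA1 lungs (Acod1, Cyba and Ncf1; 0.687% of all genes) and 4 of 6 in BLT1-/-KRasLA1 lungs (Acod1, Cybb, Ncf1 and Ncf4; 1.1%). Cyba in BLT1-/-KRasLA1 lungs was at 0.71 ± 0.16 (adjusted p = 0.0550), and Cybb (0.69 ± 0.17, adjusted p = 0.0938) and Ncf4 (0.71 ± 0.18, adjusted p = 0.106) in BLT1+/+KRasLA1 lungs were of like size without being called. Single lungs decided these counts: in BLT1+/+KRasLA1 lungs 0 genes were called without replicate 1 and 1 without replicate 2, and in BLT1-/-KRasLA1 lungs 0 were called without replicate 2 or 3 or without BLT1+/+ replicate 2 of day 2. The mean response at day 60 kept 6 of 6 calls without each CS lung in turn. Leaving out a pool leaves only the response of the other genotype, and on the arrays of day 60 alone 1 of 6 was called in each genotype (Acod1). The mean response needs both pools and has no check without one of them.

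**Figure D2:**
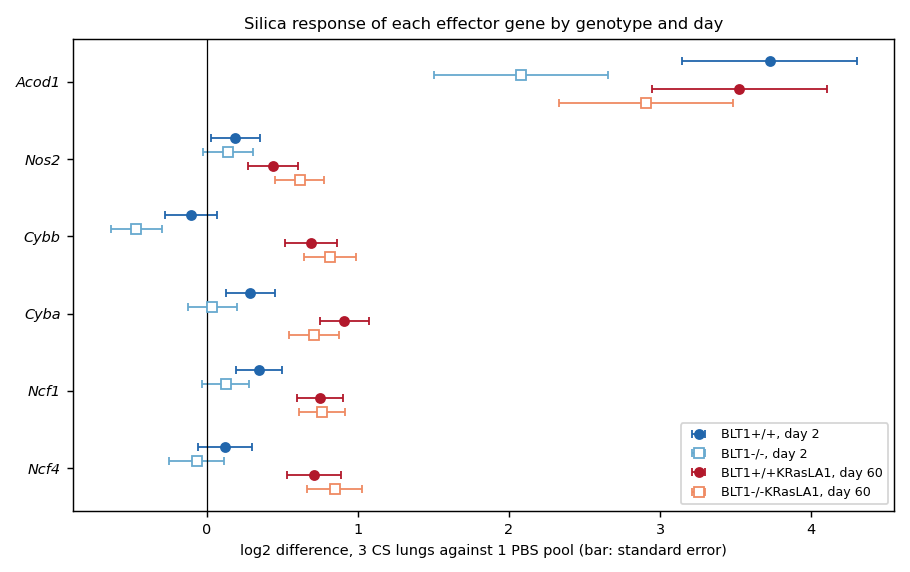
Log2 difference between 3 CS lungs and 1 PBS pool (horizontal axis; the bar is the standard error) for each gene (vertical axis) in the 4 genotypes. Acod1 lies between 2.08 and 3.73 in all 4; the oxidase genes lie between -0.47 and 0.35 at day 2 and between 0.69 and 0.91 at day 60.

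The response itself was compared between the days. The silica response of Cybb was larger at day 60 than at day 2 by 1.04 ± 0.17 (adjusted p = 0.00582), and that of Ncf4 by 0.75 ± 0.18 (adjusted p = 0.0461). These 2 of 6 were called, beside 1.7% of all genes. Cyba (0.65 ± 0.16, adjusted p = 0.0594) and Ncf1 (0.52 ± 0.15, adjusted p = 0.113) did not pass, nor did Nos2 and Acod1. Cybb was called in this comparison without each CS lung in turn. Ncf4 was called in 5 of these 12 fits (adjusted p from 0.02 to 0.0808). Its call ended without BLT1-/- replicate 1 or 3, BLT1+/+ replicate 2, BLT1-/-KRasLA1 replicate 2 or 3, or BLT1+/+KRasLA1 replicate 1 or 2. Without BLT1+/+KRasLA1 replicate 3, the difference between days was called for Cyba (0.73, adjusted p = 0.00469) and Ncf1 (0.58, adjusted p = 0.0324) as well, which makes 4 of 6. The Ncf4 call also ended with the replicate block on both days (adjusted p = 0.0622), quantile normalization (0.0558), cyclic loess (0.0537) and without the mean-variance trend (0.0568). With the day 2 replicate block, added after seeing the data, a fit that takes out what lungs of the same number share, Cyba was called too (adjusted p = 0.0378) and Ncf4 stayed called (adjusted p = 0.0435).

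The PBS pools gave the levels without silica. They differed, day 60 minus day 2, by 0.080 ± 0.15 for Cybb, 0.20 ± 0.14 for Cyba, 0.025 ± 0.13 for Ncf1 and -0.11 ± 0.16 for Ncf4. Acod1 was at -1.03 ± 0.50 (95% interval from -2.11 to 0.05, adjusted p = 0.495), so that its day 60 response was set against lower pools. By limma 0 of 6 were called between the pools, also 0 at an unadjusted p under 0.05, beside 0.396% of all genes called.

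**Figure D3:**
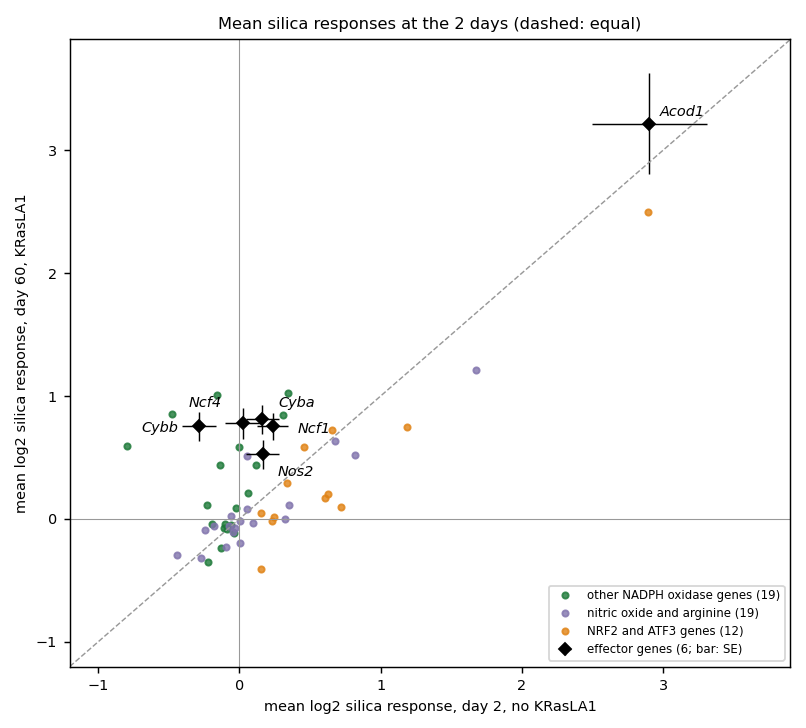
Mean log2 silica response at day 60 with KRasLA1 (vertical axis) against that at day 2 without it (horizontal axis) for the 6 genes (black, with standard errors) and for genes of 3 related lists. The dashed line marks equal responses; Acod1 lies near it, at 2.90 and 3.22, and the 4 oxidase genes lie above it.

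Whether BLT1 mattered for these genes was asked among the CS lungs. At day 2 the 3 BLT1-/- lungs had Acod1 levels below the 3 BLT1+/+ lungs without overlap, with means of 10.57 ± 0.19 (SD, n = 3) and 11.97 ± 0.89 (SD, n = 3). The difference was -1.40 ± 0.41 (95% interval from -2.29 to -0.52) and did not pass (adjusted p = 0.301). Acod1 lies on chromosome 14, as does Ltb4r1, the gene of BLT1, 47.3 megabases away. The part of this shared chromosome in the difference was not tested. Cybb and Ncf1 were also lower in BLT1-/- lungs without overlap, by -0.34 ± 0.12 (adjusted p = 0.413) and -0.21 ± 0.11 (adjusted p = 0.648). Groups without overlap were seen for 12.4% of all genes at day 2. Nos2 (0.26 ± 0.12, adjusted p = 0.551), Cyba (0.24 ± 0.12, adjusted p = 0.598) and Ncf4 (-0.018 ± 0.13, adjusted p = 0.999) overlapped. Overlap takes no account of the pairing of lungs by number at day 2, and with the replicate block 0 of 6 were called as well. By limma 0 of 6 genes were called at day 2, beside 0.0201% of all genes, with 3 of 6 at an unadjusted p under 0.05 (8.7% of all genes).

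At day 60 the BLT1 genotypes overlapped for all 6 genes after silica, so that 0 of 6 were without overlap (10.5% of all genes). Acod1 was at 10.56 ± 0.24 (SD, n = 3) in BLT1+/+KRasLA1 and at 10.55 ± 0.88 (SD, n = 3) in BLT1-/-KRasLA1 lungs, a difference of -0.010 ± 0.41 with a 95% interval from -0.89 to 0.87. For the other 5 genes the difference lay between -0.045 and 0.13, and the 95% intervals reached from -0.31 to 0.38. By limma 0 of 6 were called (0.0401% of all genes), also 0 at an unadjusted p under 0.05. The BLT1 by silica interaction, the difference between the genotypes' responses each against its own pool, was -1.65 ± 0.82 for Acod1 at day 2 (95% interval from -3.41 to 0.11, adjusted p = 0.820) and -0.62 ± 0.82 at day 60 (adjusted p = 1.00). For the other 5 genes it lay between -0.36 and 0.18. By limma 0 of 6 were called at either day, also 0 at an unadjusted p under 0.05, and 0% of all genes were called.

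Ordered by level, Acod1 was highest in BLT1+/+ CS lungs at day 2. The other 3 CS groups followed with means of 10.57, 10.56 and 10.55, which did not differ beyond their spread. The pools came last, with 8.49 and 8.25 at day 2 and 7.64 and 7.03 at day 60. For Cybb the order ran from the day 60 CS groups (12.96 ± 0.057 in BLT1-/-KRasLA1 and 12.83 ± 0.25 in BLT1+/+KRasLA1, SD, n = 3, which overlapped) over the 4 pools to the BLT1+/+ (11.94 ± 0.072) and BLT1-/- (11.61 ± 0.24) CS lungs of day 2. For Cyba, Ncf1 and Ncf4 the day 60 CS groups, which overlapped each other, also came first. Their 6 remaining groups lay between 11.23 and 11.75, between 9.80 and 10.14, and between 8.59 and 8.88, in this order of genes. The day 2 CS groups of the BLT1 genotypes overlapped for Cyba and Ncf4 and not for Ncf1. For Nos2 the CS groups ran from BLT1-/-KRasLA1 (8.26) over BLT1+/+KRasLA1 (8.15) and BLT1-/- (8.06) to BLT1+/+ (7.81), and each group overlapped the next. The Nos2 pools lay between 7.62 and 7.92, and the highest, the BLT1-/- pool of day 2, was above the BLT1+/+ CS mean.

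Promoter sequence was set beside these patterns for Acod1, which rose at both days, and for Cybb and Ncf1, which rose at day 60. RefSeq (GRCm38.p6) gave a window of 250 bases before the start site for 4 of the 6 genes. The Cybb window lies inside the annotated span of its gene, chrX:9435252-9487766, so the start site used there is not the outermost. Capitals mark matches to 4 motifs. These were the PU.1 core GAGGAA, the IRF pattern GAAA, any 2 bases, GAAA and the STAT pattern TTCNNNGAA, each on both strands, and the TATA box TATAAA on the gene's strand. The NF-kB consensus was searched on both strands too.
Acod1, chr14:103046762-103047011, plus strand: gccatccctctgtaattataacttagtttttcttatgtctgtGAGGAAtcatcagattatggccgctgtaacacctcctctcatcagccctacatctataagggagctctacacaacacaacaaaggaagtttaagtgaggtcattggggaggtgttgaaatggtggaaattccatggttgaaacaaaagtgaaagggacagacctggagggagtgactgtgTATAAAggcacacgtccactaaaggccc
Cybb, chrX:9469325-9469574, minus strand: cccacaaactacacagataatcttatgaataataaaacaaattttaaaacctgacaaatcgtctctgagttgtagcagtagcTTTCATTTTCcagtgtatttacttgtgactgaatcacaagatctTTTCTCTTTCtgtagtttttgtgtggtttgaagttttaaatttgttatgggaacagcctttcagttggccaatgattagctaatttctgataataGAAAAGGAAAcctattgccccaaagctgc
Ncf1, chr5:134229626-134229875, minus strand: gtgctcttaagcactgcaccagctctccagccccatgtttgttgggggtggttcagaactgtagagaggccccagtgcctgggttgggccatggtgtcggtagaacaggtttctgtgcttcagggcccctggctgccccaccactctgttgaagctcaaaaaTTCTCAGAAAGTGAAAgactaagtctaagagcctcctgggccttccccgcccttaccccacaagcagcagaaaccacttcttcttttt

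The IRF pattern, to which interferon regulatory factors bind, matched at 3 places in the Cybb window and at 1 in the Ncf1 window, and 2.98% of the 32851 RefSeq windows of this length hold a match. In Ncf1 it lay at -82 to -73 and overlapped the single STAT match, a pattern found in 7.02% of windows. The Acod1 window held a PU.1 core (23.3% of windows) and a TATA box (7.59%) at positions -28 to -23 from the start site. The Cyba window held none of the 5 motifs, and no window of the 4 matched the NF-kB consensus, which 7.25% of all windows do. A match describes the letters only and is no evidence of binding.

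The genes whose levels over the 16 arrays were most like each of the 6 were found among 1580 or 1581 genes with an SD of at least 0.3. These correlations describe arrays that share groups and carry no test. Acod1 was most like Tnfaip3 (A20, a brake on NF-kB; r = 0.96), the platelet-activating factor receptor Ptafr (0.95), the interleukin-1 receptor antagonist Il1rn (0.94) and Cxcl10 (0.94). Nos2 was most like the actin bundler Fscn1 (r = 0.88), Ccl9, Cpxm1 and Procr. Cybb was most like Laptm5, a lysosomal membrane protein of leukocytes (r = 0.98), Unc93b1, which carries Toll-like receptors to endosomes (0.97), Cd83 and Arhgap25. Cyba was most like Ttyh2 (r = 0.98), Ltbp2, Ptgir and Cideb. Ncf1 was most like the macrophage glycoprotein Cd68 (r = 0.97), Lcp2, Ctsz and Mreg. Ncf4 was most like Spi1 (r = 0.96), the gene of the myeloid transcription factor PU.1, then Cyth4, Myo1f and Cxcl9. Among the 6 genes themselves the 6 pairs of oxidase genes had r from 0.85 to 0.93, and Acod1 with the 4 oxidase genes from 0.038 to 0.51. Among the 12 CS lungs about their group means the order was another: Acod1 had r = 0.86 with Ncf4, 0.65 with Ncf1, 0.17 with Cyba and 0.13 with Cybb, and the oxidase pairs had r from 0.37 to 0.83.

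Around itaconate, genes of a list drawn up for the NRF2 and ATF3 programs were called at both days. The list holds regulators (Nfe2l2, Keap1, Atf3 and Nfkbiz) beside target genes. A rise of a listed gene is therefore no measure of itaconate, whose part was not tested. Of 12 measured NRF2 and ATF3 genes, 9 rose and 0 fell at day 2, and 4 rose and 0 fell at day 60, where 12.4% and 4.02% of all genes were called either way. The cystine transporter Slc7a11 rose by 2.89 ± 0.34 and 2.49 ± 0.34 at the 2 days, and the heme oxygenase Hmox1 by 1.18 ± 0.16 and 0.75 ± 0.16. Gclc (0.72 ± 0.092), which starts glutathione synthesis, and the thioredoxin reductase Txnrd1 (0.61 ± 0.099) rose at day 2. Atf3 (0.72 ± 0.18) and Nfkbiz (0.59 ± 0.093) rose at day 60. The genes named for a day are those with the smallest p on it, so the naming does not show a response limited to that day. Only Gclc differed between the days by limma, by -0.62 ± 0.13 (adjusted p = 0.0255). Of 18 measured genes of the citrate cycle and its surroundings, 2 rose at day 2, the cytosolic aconitase Aco1 (0.38 ± 0.078) and Idh3a (0.33 ± 0.097), and 0 were called at day 60 by limma, where the smallest adjusted p was 0.221, for Suclg2. The succinate dehydrogenase genes Sdha, Sdhb, Sdhc and Sdhd lay between -0.0052 and 0.19 at both days and were not called.

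Around nitric oxide, 4 of 19 measured genes rose at day 2 and 2 at day 60, and none fell at either. The shares of all genes called higher were 8.03% at day 2 and 3.35% at day 60. Gch1, which starts the synthesis of the cofactor tetrahydrobiopterin, rose at both days (0.68 ± 0.13 and 0.63 ± 0.13). The arginases Arg1 (1.67 ± 0.44) and Arg2 (0.82 ± 0.19), which take arginine away from nitric oxide synthase, and the arginine carrier Slc7a1 (0.35 ± 0.098) rose at day 2. At day 60 Arg1 was at 1.21 ± 0.44 (adjusted p = 0.190) and Arg2 at 0.52 (adjusted p = 0.178), and another carrier, Slc7a2, rose by 0.51 ± 0.10. The neuronal and endothelial synthases Nos1 and Nos3 lay between -0.20 and 0.0057 and were not called.

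Of 19 other genes of NADPH oxidases and their regulators, 0 rose and 1 fell at day 2, and 7 rose and 0 fell at day 60. Either way, 12.4% of all genes were called at day 2 and 4.02% at day 60. The gene that fell was Prkcb, a protein kinase C that phosphorylates Ncf1 (-0.79 ± 0.16, adjusted p = 0.00594). At day 60 Hvcn1, the proton channel that balances the charge of superoxide production, rose by 1.01 ± 0.13, Prkcd by 0.44 ± 0.065 and the exchange factor Vav1 by 0.84 ± 0.15. Noxo1, an organizer of the epithelial oxidase and not of the phagocyte one, rose by 1.03 ± 0.13. The other 3 were Rac2, Noxa1 and Nrros. The response differed between the days for Prkcb (1.39 ± 0.22), Rac2 (1.33 ± 0.22), Hvcn1 (1.17 ± 0.19) and Nrros (0.57 ± 0.14), which is 4 of 19 (1.7% of all genes). The catalytic subunits of the other oxidases, Nox1, Nox3, Nox4, Duox1 and Duox2, lay between -0.35 and 0.091 and were not called at either day.

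Of 13 genes that handle superoxide and peroxide, 3 rose and 1 fell at day 2, and 0 rose and 1 fell at day 60. The share of all genes called either way was 12.4% at day 2 and 4.02% at day 60. The mitochondrial Sod2 (0.60 ± 0.075), Prdx4 (0.51 ± 0.092) and Gpx2 (0.32 ± 0.091) rose and catalase (Cat, -0.34 ± 0.050) fell at day 2. At day 60 Gpx2 fell by 0.38 ± 0.091, and its response differed between the days by -0.71 ± 0.13 (adjusted p = 0.0105). Of 17 measured inducers and transcription factors, 7 rose at day 2 and 9 at day 60, and 0 fell. These counts stand beside 8.03% and 3.35% of all genes called higher. Hif1a (0.58 ± 0.094), Nfkb2 (0.54 ± 0.095), Tlr2 (0.93 ± 0.17) and Tnf (1.42 ± 0.28) led at day 2. At day 60 Nfkb2 (0.63 ± 0.095) and Spi1 (0.71 ± 0.11) rose, along with Ifngr2 (0.31) and Irf5 (0.77). Spi1 was at 0.065 at day 2 (adjusted p = 0.781), and its response differed between the days by 0.64 ± 0.15 (adjusted p = 0.0455). Ifng itself lay at -0.012 and 0.12 and was not called.

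Markers of the cells that hold these enzymes moved over the same arrays. Of all genes, 8.03% were called higher at day 2 and 3.35% at day 60, and 12.4% and 4.02% either way. Of 12 macrophage markers 5 rose at day 2 and 7 at day 60, and 0 fell. Their mean level was 10.51 to 10.80 in day 2 CS lungs against 10.24 and 10.33 in the pools, and 10.74 to 11.11 in day 60 CS lungs against 10.31 and 10.43. Of 11 alveolar macrophage markers 1 rose and 2 fell at day 2, and 4 rose at day 60, with mean levels of 11.14 to 11.39 in day 60 CS lungs against 10.78 and 10.93. Of 10 B cell markers 9 fell at day 2, to mean levels of 8.37 to 9.14 against 9.65 and 9.78, and 1 rose at day 60, with 9.63 to 10.23 against 9.25 and 9.34. The B cell genes Cd79b and Ms4a1 were present on all arrays, with lowest levels of 10.03 and 8.71. Of 9 dendritic cell markers 1 rose and 6 fell at day 2, and 4 rose and 1 fell at day 60. The part of these cells in the responses of Acod1 and the oxidase genes was not tested.

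Of 14 neutrophil markers 1 rose in the mean response at day 2 and 3 at day 60, and 0 fell. By genotype at day 2, 1 rose in BLT1+/+ lungs (Cd177, 1.07, median of the list 0.30) and 1 fell in BLT1-/- lungs (Ngp, -1.03, median -0.30). Ngp was also lower in BLT1-/- than in BLT1+/+ CS lungs of day 2, where Acod1 was lower too, by -1.22 (adjusted p = 0.0351), and was 1 of the 4 genes called in that comparison. Their mean level was higher in the day 2 pools (9.61 and 9.97) than in the day 60 pools (8.33 and 8.08). In BLT1+/+ CS lungs at day 2 it was 9.68, 10.04 and 10.32, the same order as Acod1 in these lungs, and in BLT1-/- CS lungs 9.54, 9.85 and 9.52, where Acod1 had another order. In BLT1-/-KRasLA1 CS lungs it was 8.69, 9.24 and 8.93, again in the order of Acod1, and in BLT1+/+KRasLA1 CS lungs 9.37, 8.60 and 8.84, which was not the order of Acod1. Of 7 monocyte markers 1 rose and 1 fell at day 2 and 1 rose at day 60. Their mean level had the order of Acod1 in BLT1+/+ CS lungs at day 2 (10.27, 10.29 and 10.37). It also had this order in BLT1-/-KRasLA1 (9.77, 10.16 and 10.07) and BLT1+/+KRasLA1 CS lungs (9.954, 9.949 and 9.776), but not in BLT1-/- ones. Macrophage markers had the order of Acod1 in BLT1+/+ and BLT1+/+KRasLA1 CS lungs only. Such an order of 3 lungs was thus not particular to neutrophil markers. Of 8 T cell markers 6 fell at day 2 and 6 rose at day 60. Of 5 eosinophil markers 1 fell at day 2 and 0 were called at day 60, and the most abundant of them, Prg3, reached no more than 7.41 on any array. Of 12 lung tissue markers 1 rose at each day and 0 fell. The part of any of these cells was not tested.

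**Figure D4:**
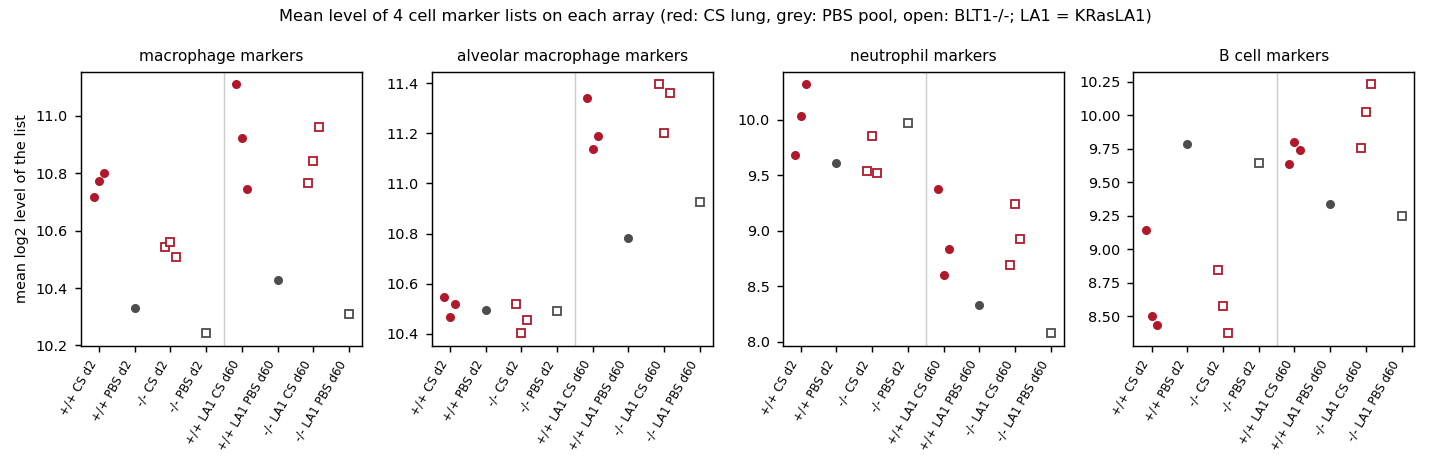
Mean log2 level of 12 macrophage, 11 alveolar macrophage, 14 neutrophil and 10 B cell markers (vertical axis) on each array by group (horizontal axis). Red points are CS lungs, grey points PBS pools and open squares BLT1-/- mice. B cell markers are lower in all 6 day 2 CS lungs than in that day's pools, and macrophage markers are higher in all 12 CS lungs than in the pools of their day.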

How the data were processed

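RNA of total lungs was hybridised to Affymetrix whole-transcript arrays, 1 per sample. The authors made the deposited log2 values with RMA and Partek 6.6 (named in the submitters' processing notes, without an order). RMA scales arrays to 1 distribution, so changes in total RNA are not seen, and it shrinks differences of dim genes. Of 35556 probe sets, 21789 carried 1 symbol in the platform annotation; for 999 genes the probe set with the highest mean was kept, leaving 19938 genes. Group means of all 16 arrays were fitted with limma 3.58.1 (R 4.3.3; mean-variance trend; 8 residual and 5.4 prior degrees of freedom) in 12 two-sided contrasts. Each PBS pool, having no replicate, was taken to vary as much as CS lungs do, and precision is limited by the array number. The fit was tested on simulated data.

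The members, the 15 gene lists (186 of 201 entries measured) and the tests were chosen with earlier results of these data known. The genes named are the 6 members, up to 4 genes with the smallest p of each list called in either mean response, the 4 genes most like each member, and up to 3 of the most abundant markers of each cell list; Ifng, Irf5, Ifngr2, Rac2, Noxa1, Nrros, Suclg2, Cd177, Ngp and the genes given as not called were named after their values were seen. Same-numbered CS lungs of the BLT1 genotypes deviated together at day 2 (r = 0.43, 0.20 and 0.35 over genes) but not at day 60 (0.09, 0.01 and 0.05), which is the only basis for pairing; a fit with a replicate block on day 2 alone was added after seeing the data. The alternatives were other scalings (quantile, cyclic loess), no trend, array weights, the arrays of a day alone, only genes above the median level, each CS lung or pool left out, the pool of the other BLT1 genotype and a replicate block.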

Additional observations from a re-analysis of the deposited data

Results flagged for a closer look

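The silica response of Cybb differed between the days: it was larger at day 60 with KRasLA1 than at day 2 without it by 1.04 ± 0.17 on the log2 scale (adjusted p = 0.00582), with 6 of 6 lungs above their pool at day 60 and 6 of 6 below at day 2. The response of Ncf4 differed likewise by 0.75 (adjusted p = 0.0461), with 6 of 6 lungs above at day 60 and 3 of 6 at day 2. Unlike the Cybb call, the Ncf4 call was lost with quantile normalization (adjusted p = 0.0558), cyclic loess (0.0537), no mean-variance trend (0.0568) and the replicate block on both days (0.0622), and in 7 of 12 fits without 1 lung. Day and KRasLA1 cannot be told apart in these differences. Sex was uneven too, with Eif2s3y RNA in both day 60 pools, in BLT1+/+KRasLA1 CS replicate 2 and on no day 2 array. Its part was not tested.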

How the results depend on the processing

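PBS pools had 1 array each, so every silica response rests on them. The count of the 6 genes called stayed at 0 for both BLT1 differences, both interactions and the pool difference under all alternatives run. Leaving out a pool gives the response of the other genotype alone, in an additive fit to the day's arrays, so it does not test the mean response; the counts were 0 at day 2 without the BLT1+/+ PBS pool and 1 at day 60 without either pool. BLT1-/- at day 2: 0 with cyclic loess, without the trend and with the day's arrays alone, and 0 to 1 without single lungs. BLT1+/+KRasLA1: 5 with array weights, 2 with quantile normalization, cyclic loess and without the trend, 1 with the day's arrays alone, 0 to 4 without single lungs. BLT1-/-KRasLA1: 6 with array weights, 3 with cyclic loess, 2 with quantile normalization and without the trend, 1 with the day's arrays alone, 0 to 5 without single lungs. The difference between days: 1 with quantile normalization, cyclic loess and without the trend, 4 with array weights, 1 to 4 without single lungs.

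With the replicate block on both days, the calls of Ncf1 in BLT1+/+KRasLA1 (adjusted p = 0.0626) and Ncf4 in BLT1-/-KRasLA1 lungs (0.0697) and of Ncf4 between days (0.0622) were lost, and Cyba in BLT1-/-KRasLA1 lungs (0.0438) and between days (0.0333) was called. With the block on day 2 alone, Ncf1 (0.0573) and Ncf4 (0.0502) in those lungs were lost, and Cyba was called there (0.048) and between days (0.0378). No other call changed with either. No member had another probe set, so that alternative was not run.

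Only values that were not called changed sign. Against the other genotype's pool, BLT1+/+ lungs at day 2 had Nos2 at -0.12, Cyba at -0.20 and Ncf4 at -0.050, and BLT1-/- lungs Ncf4 at 0.10. Without the BLT1+/+ PBS pool, the additive fit for Ncf4 at day 2 gave -0.068, the response of BLT1-/- lungs alone. Cyba in BLT1-/- lungs at day 2 was at -0.014 with quantile normalization and -0.030 with cyclic loess. With the same 2 scalings Acod1 between BLT1 genotypes at day 60 was at 0.017 and 0.018, and the Nos2 interaction at day 2 at 0.029 and 0.058; the Ncf1 interaction at day 60 was at -0.020 with quantile normalization. With array weights, BLT1 differences were 0.072 for Ncf4 at day 2, and 0.28 for Acod1, -0.015 for Ncf1 and 0.00055 for Ncf4 at day 60, and the Ncf1 interaction at day 60 was -0.042. Without single lungs, Cyba (-0.0093 to 0.11) and Ncf4 (-0.14 to 0.022) in BLT1-/- lungs at day 2 and Ncf4 in the day 2 mean (-0.029 to 0.071) crossed 0. So did BLT1 differences of Ncf4 at day 2 (-0.095 to 0.092) and, at day 60, of Acod1 (-0.33 to 0.49), Nos2 (-0.0091 to 0.17), Cybb (-0.0070 to 0.24), Cyba (-0.20 to 0.044), Ncf1 (-0.082 to 0.16) and Ncf4 (-0.12 to 0.078). The interactions of Nos2 at day 2 (-0.14 to 0.052) and of Cybb (-0.0059 to 0.24) and Ncf1 (-0.11 to 0.13) at day 60 crossed 0 too. Of 1464 values for single genes, 1329 kept direction and side of the threshold, 75 lost a call, 22 gained one and 38 changed sign; the cause was not tested.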
